A study of Mus musculus with 24 samples.

Results

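Epithelial cells that are damaged switch on a recognisable set of genes, and 10 of them were followed here with age in the mouse kidney, liver, lung and white adipose tissue (WAT): Havcr1, Lcn2, Krt20, Vcam1, Sox9, Cd44, Krt7, Krt8, Krt18 and Krt19. They were found on the arrays by matching each probe's accession to a mouse RefSeq symbol. All 10 were present, out of 22911 symbols matched, and within a tissue each gene was read from its brightest probe. The samples were total RNA of whole tissues from male C57BL/6J mice aged 10 weeks (10W) or 90 weeks (90W), with no other treatment or genotype in the labels, and 3 arrays of each tissue and age made 24 arrays in all. Every array carried 1 sample in 1 colour (Cy3). The kidney samples were not dissected into tubules, so all values are those of the organ, and in such bulk samples fewer cells of a type and less RNA per cell cannot be told apart. The labels do not say which fat depot the WAT came from, nor which samples of different tissues came from the same mouse.

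The kidney tubule is a single layer of polarised epithelium. When it is injured, its cells lose part of their transport machinery, flatten, spread and divide to cover the gap. Havcr1 encodes KIM-1, a phosphatidylserine receptor of proximal tubule cells that lets them take up dying neighbours. Lcn2 encodes NGAL, a siderophore-binding protein that is made by injured tubules, by hepatocytes in the acute phase response, and by neutrophils, which store it in granules. Vcam1 encodes an adhesion molecule for leukocyte integrins that activated endothelium and tubule cells with failed repair display. Sox9 is a transcription factor of progenitor and regenerating epithelia, and Cd44 is a hyaluronan receptor of migrating cells and leukocytes. Keratins build the intermediate filaments of epithelia in pairs of a type I chain and a type II chain: Krt8 and Krt18 are the pair of simple epithelia and of hepatocytes, Krt7 and Krt19 mark ducts, the collecting system and mesothelium, and Krt20 marks intestinal epithelium and the outer cells of the urothelium.

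The start sites of 7 of the 10 genes had RefSeq promoter windows (assembly GRCm38.p6). The 250 bases before the start are shown for 3 genes with large rises in the aged kidney (Lcn2, Krt20 and Cd44) and for the gene of the set that was not called there (Krt7). Letters in capitals are matches to a GC box (GGGCGG) or a TATA box (TATAAA) on either strand, and each sequence runs 5′ to 3′ along the gene's own strand.
Lcn2 (chr2:32387740-32387989, GRCm38.p6, minus strand): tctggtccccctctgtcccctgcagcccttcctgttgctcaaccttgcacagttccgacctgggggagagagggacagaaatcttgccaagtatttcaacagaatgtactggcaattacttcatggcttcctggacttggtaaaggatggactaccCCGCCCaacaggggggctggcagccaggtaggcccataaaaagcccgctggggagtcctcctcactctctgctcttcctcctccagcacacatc
Krt20 (chr11:99438154-99438403, GRCm38.p6, minus strand): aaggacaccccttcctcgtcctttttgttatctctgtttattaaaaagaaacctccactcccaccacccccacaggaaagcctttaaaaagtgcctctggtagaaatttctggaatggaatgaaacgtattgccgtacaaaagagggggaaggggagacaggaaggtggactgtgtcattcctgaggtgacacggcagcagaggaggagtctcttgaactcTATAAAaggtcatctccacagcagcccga
Cd44 (chr2:102901666-102901915, GRCm38.p6, minus strand): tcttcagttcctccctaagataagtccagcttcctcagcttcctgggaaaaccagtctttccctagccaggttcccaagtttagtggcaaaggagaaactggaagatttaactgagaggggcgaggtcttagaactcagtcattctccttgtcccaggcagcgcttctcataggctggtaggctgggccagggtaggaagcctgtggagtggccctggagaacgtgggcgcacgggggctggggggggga
Krt7 (chr15:101412153-101412402, GRCm38.p6, plus strand): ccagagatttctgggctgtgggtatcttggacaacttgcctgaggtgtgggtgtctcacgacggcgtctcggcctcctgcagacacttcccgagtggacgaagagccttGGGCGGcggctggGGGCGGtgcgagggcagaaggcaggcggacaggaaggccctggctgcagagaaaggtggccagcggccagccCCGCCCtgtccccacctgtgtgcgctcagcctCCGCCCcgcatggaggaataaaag
Krt20 had a TATA box from 29 to 24 bases before its start, a motif found in 12.4% of 32851 windows of this length. Krt7 held 4 GC boxes and Lcn2 held 1, against 32.7% of all windows with at least 1. The Krt7 window was the richest in G and C of these 4, at 66%, and the Krt20 window held 48%, beside a median of 52.4% over all windows. The CCAAT box (letters CCAAT, in 33.8% of windows) and the AP-1 letters TGANTCA (in 6.75%) were not found in the windows of the 7 genes, and no matches of different motifs overlapped. A match of letters is a description of the sequence only.

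Levels are given on a log2 scale on which 0 is the 75th percentile of the probes of the same array, so 1 unit is 1 doubling. They compare samples for 1 probe and do not rank genes. On each array between 58.6% and 71.1% of the probes were well above background by the scanner software's own call, no spot was saturated, and signal over background and the number of arrays take the place of sequencing depth. Arrays of the same group correlated at 0.942 or more. A change was called where limma's adjusted p was under 0.05 over all entries tested in the tissue. Nothing in the labels states that replicates are separate mice, so p-values measure only the spread between these samples.

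The arrays of a tissue shared 1 slide and each tissue had its own, so tissue and slide cannot be told apart, while the ages were compared within a slide. Each tissue carried its own markers: summed linear levels were 2370 to 4030 for 4 hepatocyte genes in the liver and at most 394 elsewhere, 887 to 2670 for 20 nephron genes in the kidney and at most 281 elsewhere, 1740 to 2620 for 10 airway and alveolar genes in the lung and at most 54.9 elsewhere, and 543 to 880 for 4 adipocyte genes in WAT and at most 30.8 elsewhere. Of the WAT arrays, 10W replicate 1 stood apart: genes of the epididymis, the duct that lies against the gonadal fat pad in males, reached levels of 7.45 (Adam7), 8.76 (Lcn5) and 7.58 (Crisp1). The highest of the 5 other WAT arrays read 0.37, -2.60 and -1.82 for these genes. Results in WAT are therefore given with and without that array. In the liver, 90W replicate 2 stood apart by neutrophil genes (S100a8 8.11 against 2.40 and 1.69 on the other aged livers; Mpo 7.41 against -1.17 and -0.58), and the liver results that it touches are given both ways too.

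**Figure D1:**
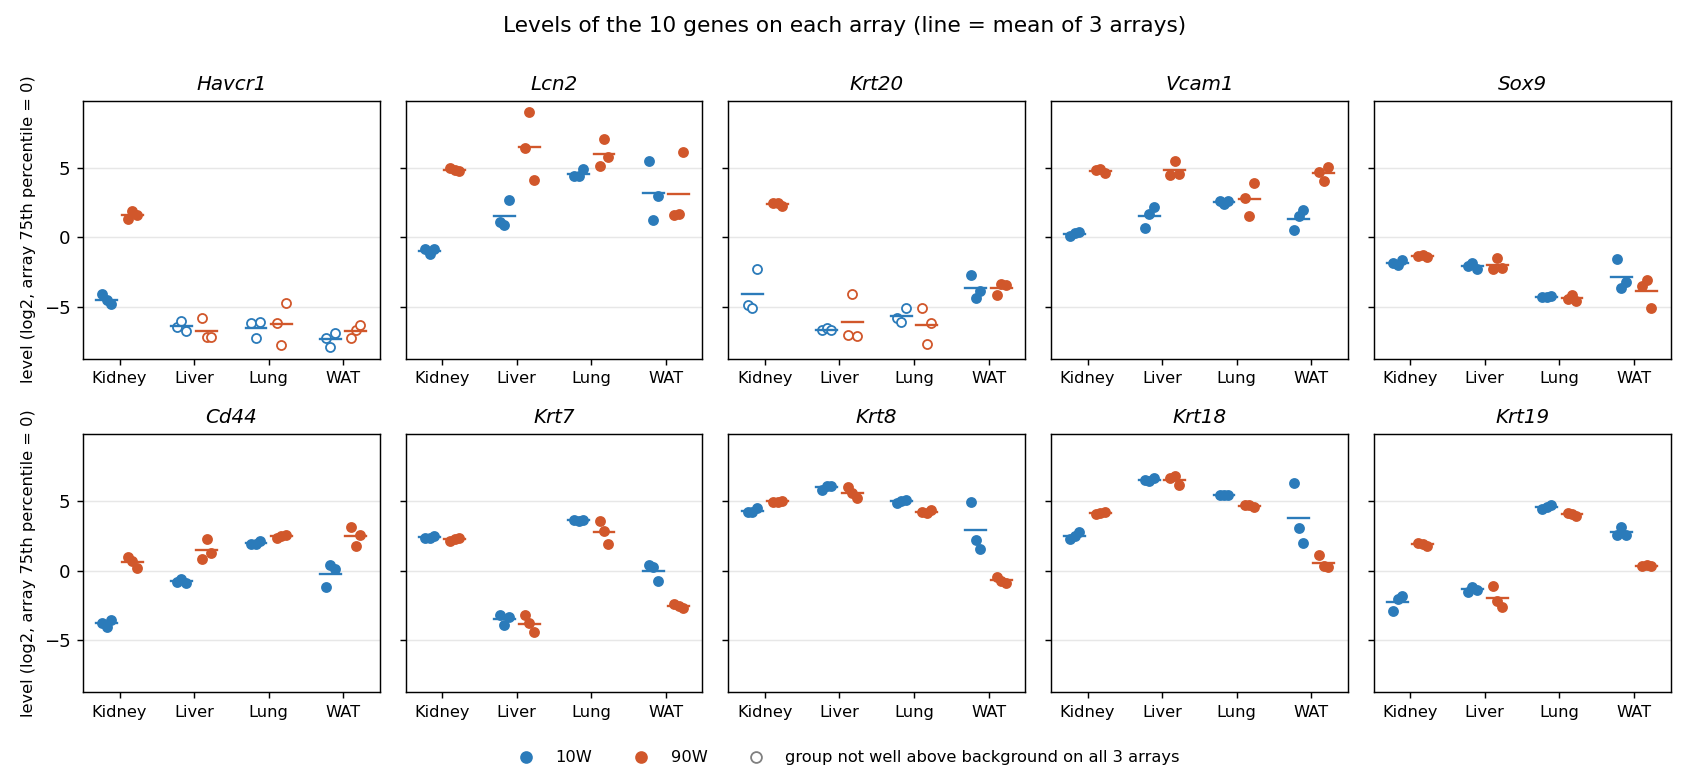
Level of each of the 10 genes on every array, as log2 signal relative to the 75th percentile of the array, by tissue and age (blue 10W, orange 90W), with a line at the mean of 3 arrays and hollow points for groups in which fewer than 3 arrays were well above background. In the kidney the 10W and 90W points lie apart for every gene but Krt7, while Havcr1 is well above background on all 3 arrays of a group in the kidney alone.

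In the aged kidney 9 of the 10 genes rose and none fell. Of all 31505 entries tested in the kidney, 20.6% were called higher and 42.6% lower. The median change of the 10 genes was 4.28, against -0.23 over all entries. The ages did not overlap for 9 of the 10 genes, while 70.7% of all entries also had ages that did not overlap.

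Krt20, Havcr1 and Lcn2 gave the largest changes of the set. Havcr1 (probe A_66_P122767) read -4.09, -4.52 and -4.81 in the young kidneys and 1.36, 1.88 and 1.60 in the aged kidneys. All arrays of both ages were well above background and the ages lay far apart. The change was 6.08 ± 0.22 (SE, n = 3 and 3), a 67.8-fold rise (adjusted p = 2.54e-05, limma).

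Lcn2 (probe A_55_P2070869) read -0.85, -1.18 and -0.80 in the young kidneys and 5.01, 4.86 and 4.76 in the aged kidneys. The 3 arrays of each age lay close together, and the change of 5.82 ± 0.13 (adjusted p = 9.07e-06, limma) was a 56.5-fold rise. A further Lcn2 probe gave 6.31 ± 0.19.

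Krt20 (probe A_52_P445360) read -4.87, -5.09 and -2.24 in the young kidneys, where 2 of 3 arrays were well above background, and 2.47, 2.47 and 2.28 in the aged kidneys. Its change, 6.47 ± 0.74 (adjusted p = 0.000721, limma), had the widest error of the set with the young kidneys spread widely, and the third young kidney still lay below every aged one. Without that array the change was 7.39 (adjusted p = 7.49e-05).

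Vcam1 (probe A_51_P210956) read 0.09, 0.32 and 0.41 at 10W and 4.86, 4.96 and 4.64 at 90W, a 23.3-fold rise of 4.55 ± 0.13 (adjusted p = 1.61e-05, limma). A dimmer Vcam1 probe gave 5.01 ± 0.18. Cd44 (probe A_55_P2912261) read -3.77, -4.03 and -3.53 at 10W and 1.00, 0.71 and 0.24 at 90W, a 21.5-fold rise of 4.42 ± 0.22 (adjusted p = 6.06e-05, limma). The ages lay apart for both adhesion genes. Of the further Cd44 probes, 1 gave 4.67 ± 0.31 and the dimmest gave 2.39 ± 0.14, with no young kidney well above background on the latter.

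Sox9 depended on the probe. The brightest probe in the kidney (A_55_P2745144) read -1.86, -1.98 and -1.61 at 10W and -1.33, -1.25 and -1.39 at 90W, a rise of 0.49 ± 0.11 (adjusted p = 0.0104, limma), or 1.41-fold. The other probe (A_55_P2798454) read -5.18, -5.40 and -5.66 at 10W, where 1 of 3 arrays was well above background, and -0.68, -0.33 and -0.71 at 90W. Its change was 4.84 ± 0.16 (adjusted p = 1.82e-05 over all probes, limma). Both probes put every aged kidney above every young one, but they gave very different sizes. Both carry the same Sox9 accession, and the files do not say which part of the transcript either one detects.

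**Figure D2:**
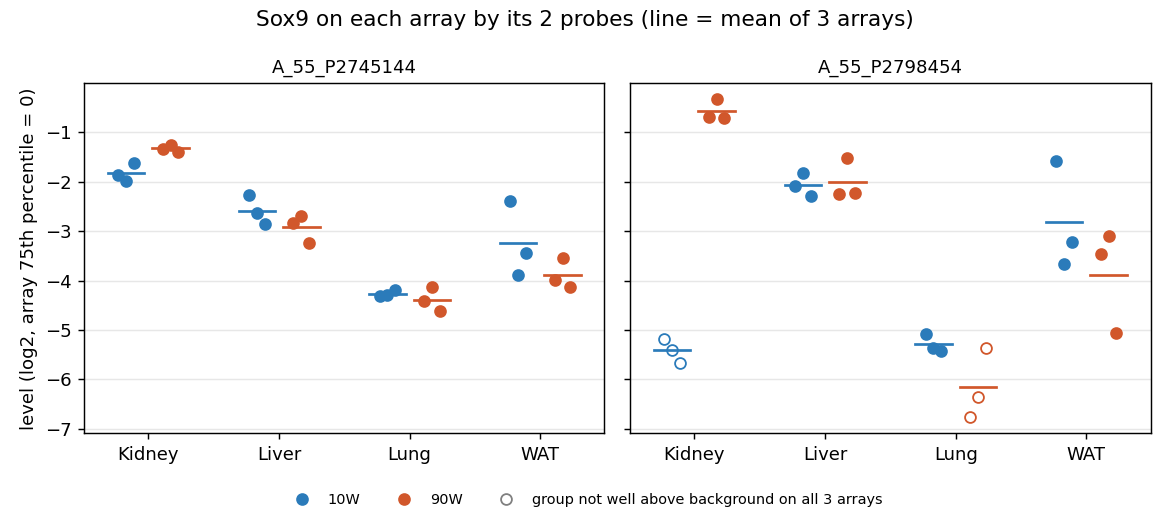
Sox9 level on every array by its 2 probes, as log2 signal relative to the 75th percentile of the array, by tissue and age (blue 10W, orange 90W), with a line at the mean of 3 arrays and hollow points for groups with fewer than 3 arrays well above background. The aged kidneys sit 0.49 above the young ones by probe A_55_P2745144 and 4.84 above by probe A_55_P2798454.

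Among the keratins the rises were graded. Krt19 (probe A_51_P356642), a type I chain of ducts, read -2.89, -2.0 and -1.78 at 10W and 2.03, 1.93 and 1.82 at 90W, a 17.7-fold rise of 4.15 ± 0.29 (adjusted p = 0.000158, limma). Krt18 (probe A_51_P324814) read 2.29, 2.48 and 2.77 at 10W and 4.12, 4.16 and 4.21 at 90W, a 3.14-fold rise of 1.65 ± 0.13 (adjusted p = 0.000256, limma). Its type II partner Krt8 (probe A_51_P242400) read 4.26, 4.26 and 4.53 at 10W and 4.98, 4.98 and 5.04 at 90W, a 1.57-fold rise of 0.65 ± 0.10 (adjusted p = 0.00208, limma). The aged kidneys were nearly identical to each other for Krt8 and Krt18, with SDs of 0.03 and 0.04, and lay above all young kidneys. With the spread pooled over all 24 arrays, the calls of Krt8 (adjusted p = 0.322) and of Sox9 by its brightest probe (adjusted p = 0.157) were lost.

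Krt7 (probe A_52_P410685), a type II chain of the collecting system and urothelium, was the exception. It read 2.35, 2.36 and 2.54 at 10W and 2.15, 2.31 and 2.37 at 90W. The ages overlapped and the change was -0.14 with a 95% interval from -0.38 to 0.10 (adjusted p = 0.257, limma). Its sign turned to 0.21 with scaling on the spike-in spots.

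Other genes linked to the tubule were read in the whole kidney too. Of 20 other genes on a list of tubule injury, 17 rose and 2 fell, with a median change of 1.84. Over all entries in the kidney, 20.6% were called higher and 42.6% lower. Which cells carried the changes of this list was not tested. The 2 largest rises were those of Ccl2, a chemokine for monocytes, by 6.07, and Timp1, an inhibitor of metalloproteinases, by 4.99. Itgb6, an integrin chain of epithelia, fell by 1.31, and the calcium channel gene Trpv4 fell by 0.72. Cryab, a small heat shock protein, changed by -0.04 (adjusted p = 0.76, limma).

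Genes of the differentiated nephron went the other way, with 19 of 20 called lower, none higher and a median of -1.14. Calb1, the calcium-binding protein of the distal tubule, fell by 2.58 and Egf, which the distal tubule secretes, fell by 2.53. Aqp2, the water channel of the collecting duct, changed by -0.17 (adjusted p = 0.654, limma). Against the background of 42.6% lower calls, the summed linear level of the 20 genes ranged from 2380 to 2670 in the young kidneys and from 887 to 1380 in the aged ones.

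Keratins outside the 10 genes had no higher call in the kidney. Of 14 on the list, 11 could be tested, none was called higher and 7 were called lower. Over all entries in the kidney, 20.6% were called higher and 42.6% lower. Krt79 changed by 0.44 and narrowly missed the threshold (adjusted p = 0.0507, limma), and its aged kidneys all lay above the young ones. The keratin of stratified and basal epithelia Krt15 fell by 1.82 (adjusted p = 0.045, limma), but its ages overlapped and 2 of 3 aged arrays were well above background. Krt6b fell by 1.01. Of 12 genes of desmosomes and cell adhesion, 5 rose and 4 fell: Cdh6, a cadherin of the developing and injured proximal tubule, rose by 2.40, the plakin gene Ppl rose by 1.61, the kidney cadherin Cdh16 fell by 0.67, and Evpl fell by 0.64. Dsc2, 1 of the 5 that rose, was well above background on no young kidney and passed the filter through the aged kidneys alone. Its rise was at least 1.22-fold.

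Krt20 and Krt7 are also genes of the urothelium, and whole kidneys can carry renal pelvis. Of 9 urothelial genes, 3 were called higher and 2 lower in the aged kidney. Psca rose by 2.61, Upk3b by 1.71 and Grhl3 by 0.64, while Upk3a fell by 1.71 and Krt5 by 0.80. The other uroplakins Upk1a (-0.10, adjusted p = 0.705, limma), Upk1b (-0.84, adjusted p = 0.226) and Upk2 (-0.65, adjusted p = 0.335) were not called. The summed linear level of the 9 genes ranged from 11.3 to 12.4 in the young kidneys and from 10.2 to 12.1 in the aged ones, but Trp63, which was not called (mean levels of 3.40 and 3.29, adjusted p = 0.342), carried nearly all of that sum. The part of urothelium in the Krt20 change was not tested. Of 7 mesothelial genes measured, Msln rose by 1.82, Upk3b is shared with the urothelial list, and Gpm6a fell by 1.91. The summed level of that list, 10.1 to 12 at 10W and 6.14 to 6.38 at 90W, was almost wholly that of Gpm6a (mean levels of 2.95 and 1.03) and of Wt1 (1.48 and 1.75), which podocytes of the kidney also express, so it does not describe the list.

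Leukocyte genes moved with Lcn2, Vcam1 and Cd44 in the aged kidney, and their part in these rises was not tested. Of 10 macrophage genes, 9 were called higher, led by Lyz2 (5.51) and Mrc1 (4.07), and the summed level rose from a range of 40.1 to 46.0 to a range of 128 to 184. Most of the young sum came from Csf1r (mean levels of 4.27 and 5.45) and from Itgam (4.09 and 4.20), which was not called (adjusted p = 0.629, limma). Of 10 lymphocyte genes, 9 were called higher and 1 lower. Jchain of plasma cells rose by 7.95. Of 9 neutrophil genes measured, 5 were called higher and 1 lower, with S100a8 at 3.47 and S100a9 at 3.29. Cxcr2, 1 of the 5, was well above background on no young kidney and passed the filter through the aged kidneys alone. Retnlg, another of the 5, was well above background on 1 of 3 young kidneys. The neutrophil granule gene Ngp was not well above background on any kidney array and Elane fell by 0.74. The summed neutrophil level of the aged kidneys, 3.68 to 10.9, lay above that of the young ones, 2.31 to 3.04. Endothelial genes gave 3 higher and 1 lower call of 10, with Vwf at 1.92 and Icam1 at 1.88. The other endothelial gene called higher, Sele, was well above background on no young kidney and passed the filter through the aged kidneys alone. All 10 fibroblast genes were called higher, with Lum at 4.23 and Col1a1 at 3.61.

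Lists of other epithelia moved in both directions in the kidney. Of 7 airway and alveolar genes tested, 2 were called higher and 2 lower, with Scgb1a1 down by 1.20 and Ager by 0.50. Of 4 epididymal genes tested, Crisp1 was called higher and 3 were called lower: Cst11 by 1.58, Lcn9 by 0.68 and Rnase10 by 0.43. Foxj1, the regulator of motile cilia, read -4.84, -4.62 and -4.74 at 10W and 0.28, -0.07 and -0.39 at 90W, a rise of 4.67 ± 0.18 (adjusted p = 2.94e-05, limma). Crisp1 was not well above background on any young kidney and read -1.37, -1.88 and -2.16 in the aged kidneys, at least 12.4-fold higher. It passed the filter through the aged kidneys alone, so no p-value is given for it. The surfactant genes Sftpc, Sftpb and Sftpa1 and the epididymal genes Lcn5, Lcn8 and Defb20 were not well above background on any kidney array.

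**Figure D3:**
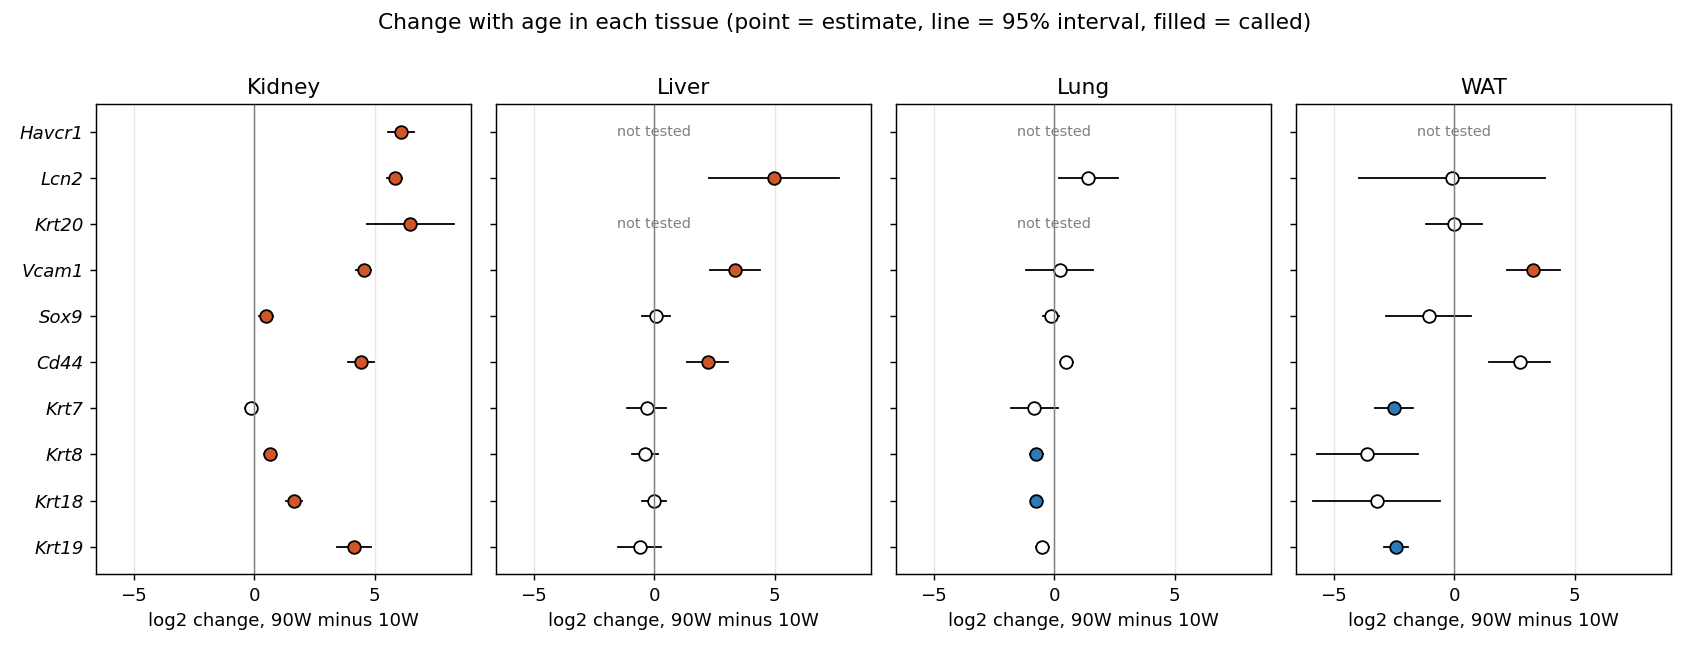
Change with age (log2, 90W minus 10W) of each gene in each tissue, with its 95% interval from limma, filled orange where called higher and filled blue where called lower. All kidney genes but Krt7 lie above 0, while the keratins lie at or below 0 in the other tissues.

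In the aged liver 3 genes rose: Lcn2, Vcam1 and Cd44. Which cells carried these rises was not tested. Of 27906 entries tested in the liver, 10.5% were called higher, 17% lower, and 49.9% had ages that did not overlap. Of the 10 genes, 8 could be tested, 3 had ages that did not overlap, and none was called lower. The median change of the 8 was 0.03, against -0.20 over all entries.

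Lcn2 read 1.08, 0.93 and 2.67 in the young livers and 6.41, 9.02 and 4.17 in the aged ones. The ages did not overlap, and aged replicate 2, which had the high neutrophil genes, gave the highest value. The change was 4.97 ± 1.14 (adjusted p = 0.023, limma) and 3.73 (adjusted p = 0.0261) without that array, and it was 6.15 (adjusted p = 0.00954) without aged replicate 4. The call was lost without young replicate 1 (4.73, adjusted p = 0.0756), young replicate 2 (4.66, adjusted p = 0.0783) or aged replicate 1 (5.03, adjusted p = 0.0556). The summed neutrophil level of the 9 genes measured ranged from 4.37 to 9.75 in the young livers and from 20.0 to 1580 in the aged ones, and its part in the Lcn2 change was not tested.

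Vcam1 read 0.67, 1.68 and 2.18 at 10W and 4.51, 5.50 and 4.60 at 90W, a rise of 3.36 ± 0.43 (adjusted p = 0.0044, limma). Cd44 read -0.77, -0.55 and -0.86 at 10W and 0.84, 2.31 and 1.31 at 90W, a rise of 2.21 ± 0.36 (adjusted p = 0.00884, limma). The ages lay apart for both, and without aged replicate 2 the changes were 3.04 and 1.80, both still called. Of 10 macrophage genes, 8 were called higher in the liver, and their summed level went from a range of 71.8 to 93.7 to a range of 268 to 321.

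The hepatocyte keratins were high and were not called. Krt8 read 5.84, 6.09 and 6.10 at 10W and 6.03, 5.61 and 5.25 at 90W, and its 95% interval ran from -0.92 to 0.16. Krt18 changed by -0.01 (95% interval from -0.49 to 0.47). The ages overlapped for both. The bile duct keratins Krt19 (-0.60, 95% interval from -1.49 to 0.28, but called lower at -1.04 with adjusted p = 0.0329 without aged replicate 1) and Krt7 (-0.32, 95% interval from -1.13 to 0.50) were not called either, nor was Sox9 (0.07, 95% interval from -0.52 to 0.66, read from probe A_55_P2798454, the brighter one in this tissue). Of 10 bile duct genes, 6 could be tested, and Cftr alone was called: it fell by 0.54. Havcr1 was not well above background on any liver array, and Krt20 was so on 1 aged array of 6.

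In the aged lung no gene of the set was called higher and 2 were called lower. Of 30327 entries tested in the lung, 2.72% were called higher, 2.89% lower, and 35.8% had ages that did not overlap. Of the 8 genes tested, 5 had ages that did not overlap, 2 of them higher and 3 lower at 90W, and the median change was -0.30 against -0.08 over all entries.

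The lung's simple epithelial keratins were the genes that fell. Krt18 read 5.48, 5.48 and 5.44 in the young lungs and 4.74, 4.77 and 4.61 in the aged ones, and it fell by 0.76 (SE 0.09, adjusted p = 0.0147, limma). Krt8 read 4.91, 5.06 and 5.09 at 10W and 4.25, 4.14 and 4.41 at 90W, and it fell by 0.75 (SE 0.11, adjusted p = 0.024, limma). No aged lung reached a young one for either partner of the pair. Both calls were lost when any 1 young lung was left out, although the changes of the pair ranged only from -0.92 to -0.69 over all alternatives. Leaving out young replicate 1 gave adjusted p = 0.0873 for Krt18 and 0.0904 for Krt8.

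Krt19 read 4.43, 4.57 and 4.72 at 10W and 4.15, 4.11 and 3.99 at 90W, and its change of -0.49 missed the threshold (adjusted p = 0.0622, limma) although the ages lay apart. With spike-in scaling Krt19 was called lower (-0.65, adjusted p = 0.0481). Krt7 gave -0.82 (95% interval from -1.81 to 0.16). Of 14 other keratins, 12 could be tested, 4 fell and none was called higher: Krt15 fell by 4.98 and Krt5, the keratin of airway basal cells, fell by 1.83. Of 12 genes of desmosomes and adhesion, 3 fell, and these were Epcam (by 0.76), Dsp (by 0.70) and Cdh1 (by 0.67). Of 10 genes of the alveolar and airway epithelium, Epcam was the 1 called, and the summed level of the list ranged from 2020 to 2070 in the young lungs and from 1740 to 2620 in the aged ones.

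Lcn2 read 4.46, 4.44 and 4.90 in the young lungs and 5.13, 7.10 and 5.81 in the aged ones, a change of 1.42 ± 0.50 that was not called (adjusted p = 0.142, limma). The ages did not overlap. Aged lung replicate 2, which was highest for Lcn2, was also highest for S100a8 (8.39, against 6.20 and 5.11). Cd44 read 1.93, 1.91 and 2.13 at 10W and 2.39, 2.50 and 2.62 at 90W, a change of 0.51 ± 0.11 (adjusted p = 0.0566, limma). Vcam1 (0.24, 95% interval from -1.15 to 1.62) and Sox9 (-0.12, 95% interval from -0.45 to 0.22) were not called. Havcr1 was well above background on 1 of 6 lung arrays and so was Krt20, and neither was tested.

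The aged fat went in both directions: Vcam1 was called higher, and the keratins Krt19 and Krt7 were called lower. Of 30063 entries tested in WAT, 2.01% were called higher, 0.579% lower, and 28.8% had ages that did not overlap. Of the 9 genes tested, 1 was called higher, 2 were called lower and 6 had ages that did not overlap. The median change of the 9 was -1.06, against -0.05 over all entries.

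Krt19 read 2.62, 3.17 and 2.61 at 10W and 0.35, 0.44 and 0.35 at 90W, and it fell by 2.42 (SE 0.21, adjusted p = 0.00669, limma), a 5.35-fold difference. Krt7 read 0.39, 0.27 and -0.73 at 10W and -2.39, -2.55 and -2.64 at 90W, and it fell by 2.50 (SE 0.33, adjusted p = 0.0224, limma). The ages lay apart for both. Without 10W replicate 1, the array with epididymal genes, Krt19 fell by 2.51 (adjusted p = 0.0181) and Krt7 by 2.30 (adjusted p = 0.0445). The Krt7 call was lost without 10W replicate 2 or any 1 of the 90W arrays (changes of -2.36 to -2.57, adjusted p from 0.0672 to 0.0834), while Krt19 stayed called without any 1 array.

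Krt8 read 4.96, 2.20 and 1.61 at 10W and -0.42, -0.72 and -0.88 at 90W. Krt18 read 6.30, 3.12 and 2.0 at 10W and 1.11, 0.38 and 0.27 at 90W. The array with the epididymal genes was the highest for both, and all 3 young samples lay above all aged ones. With all arrays neither was called (Krt8 -3.60, adjusted p = 0.0953; Krt18 -3.22, adjusted p = 0.188, limma). Without that array Krt8 was called lower at -2.58 (adjusted p = 0.0223) and Krt18 was not (-1.97, adjusted p = 0.0991).

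Mesothelial genes, which mark the covering layer of visceral fat, were not called in WAT. Msln read 0.09, 4.91 and 3.94 at 10W and 2.80, 2.14 and 1.69 at 90W, and Upk3b read -1.84, 3.56 and 2.63 at 10W and 1.31, 1.09 and 0.59 at 90W. On the other 2 young arrays both genes lay above all aged ones, and on 10W replicate 1 both lay below them. None of the 7 mesothelial genes measured was called, and their summed level ranged from 3.18 to 71.4 at 10W and from 13.4 to 19.0 at 90W. Their part in the keratin changes was not tested.

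**Figure D4:**
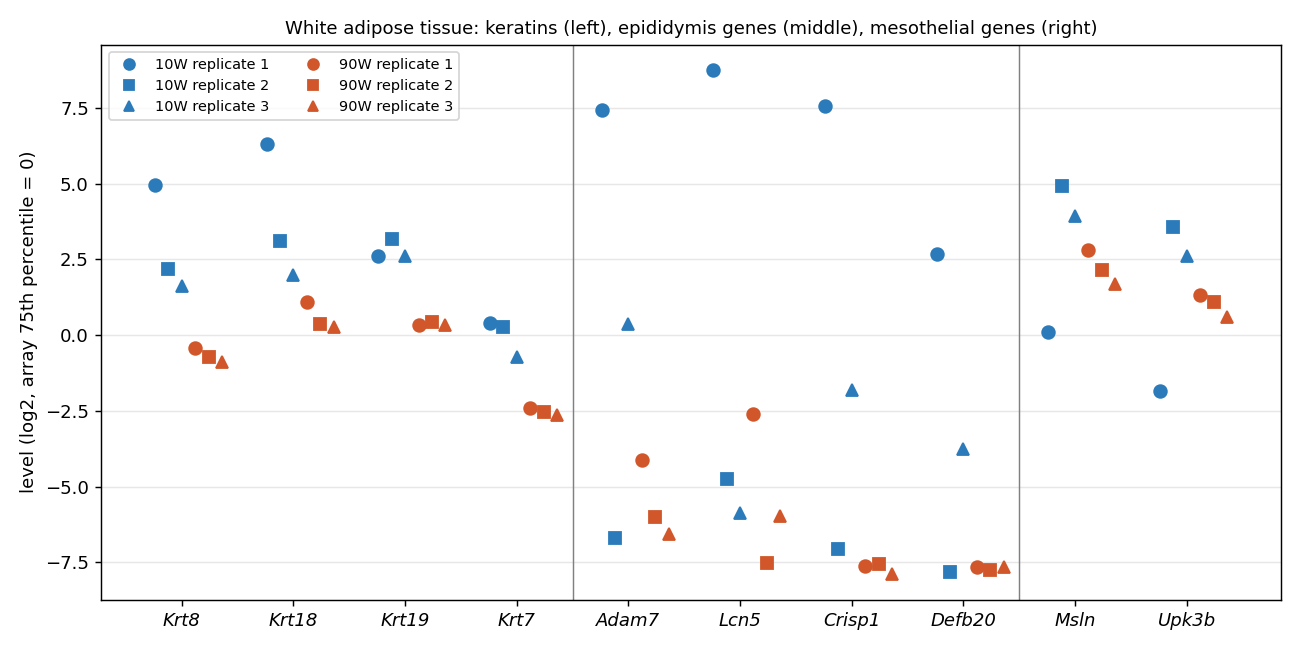
Level on each WAT array (log2 signal relative to the 75th percentile of the array; blue 10W, orange 90W; circle, square and triangle for replicates 1, 2 and 3) of 4 keratins, 4 epididymal genes and 2 mesothelial genes. 10W replicate 1 is highest for Krt8 (4.96), Krt18 (6.30) and all 4 epididymal genes and lowest for Msln (0.09) and Upk3b (-1.84), while all young arrays lie above all aged ones for each of the 4 keratins.

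Vcam1 in WAT read 0.51, 1.56 and 1.96 at 10W and 4.74, 4.05 and 5.08 at 90W, a rise of 3.28 ± 0.45 (adjusted p = 0.0253, limma) and of 2.87 (adjusted p = 0.0328) without the array with epididymal genes. The call was lost without 10W replicate 2 (3.39, adjusted p = 0.0831), 90W replicate 1 (3.22, adjusted p = 0.105) or 90W replicate 3 (3.05, adjusted p = 0.0821). Cd44 read -1.15, 0.45 and 0.13 at 10W and 3.14, 1.82 and 2.62 at 90W, a change of 2.72 ± 0.52 (adjusted p = 0.0597, limma). The ages did not overlap for either gene. The summed macrophage level ranged from 75.3 to 211 at 10W and from 366 to 772 at 90W, with Cd68 (3.72) and Adgre1 (3.18) called higher, and its part in these changes was not tested.

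Lcn2 in WAT read 5.51, 1.23 and 2.95 at 10W and 1.63, 1.68 and 6.14 at 90W. The ages overlapped and the change of -0.08 (95% interval from -3.93 to 3.77) had no settled sign, since it was 1.06 without 10W replicate 1 and -1.57 without 90W replicate 3. The latter array was also the highest WAT array for S100a8 (7.67) and Ngp (5.32). Krt20 (0.00, 95% interval from -1.16 to 1.16) and Sox9 (-1.06, 95% interval from -2.83 to 0.70) were not called, and Havcr1 was not well above background on any WAT array.

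Whether the kidney changed more than the liver and the lung was tested directly, as the difference between the changes with age of 2 tissues in 1 fit of the 18 kidney, liver and lung arrays. Of the 8 genes that could be tested against the liver, 5 had a larger change in the kidney and none a smaller one, where 7.17% of 27005 entries were called larger and 8.36% smaller. Of the 8 tested against the lung, 6 had a larger change in the kidney and none a smaller one, where 12.1% of 28731 entries were called larger and 18.2% smaller. Both comparisons use the same kidney arrays.

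Krt19 differed most from the liver, by 4.75 ± 0.44 (adjusted p = 7.91e-06, limma), with a change of 4.15 in the kidney and -0.60 in the liver. Cd44 differed by 2.21 ± 0.40 (adjusted p = 0.00171), Krt18 by 1.66 ± 0.21 (adjusted p = 8.83e-05), Krt8 by 1.03 ± 0.23 (adjusted p = 0.00609) and Sox9 by 0.82 ± 0.24 (adjusted p = 0.0297). For this test Sox9 was read from probe A_55_P2745144 in both tissues. By that probe its liver change was -0.33, where the brighter liver probe gave 0.07. The interval for Lcn2 ran from -1.74 to 3.43, that for Vcam1 from -0.23 to 2.61 and that for Krt7 from -0.86 to 1.22, so these 3 were not shown to differ from the liver and the interval for Lcn2 was wide. Without aged liver replicate 2 the Lcn2 difference was 2.09 (adjusted p = 0.115). The Sox9 call against the liver was lost without 10W liver replicate 1 (0.66), 90W liver replicate 4 (0.67), 10W kidney replicate 1 (0.80) or 2 (0.74), or 90W kidney replicate 1 (0.83) or 2 (0.79). With the spread pooled over all 24 arrays the calls of Krt18 (adjusted p = 0.286), Krt8 (adjusted p = 0.431) and Sox9 (adjusted p = 0.213) against the liver were lost, while those of Krt19 and Cd44 were kept.

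Against the lung the differences were 4.64 ± 0.45 for Krt19 (adjusted p = 7.97e-06, limma), 4.40 ± 1.21 for Lcn2 (adjusted p = 0.0137), 4.31 ± 0.67 for Vcam1 (adjusted p = 0.000325) and 3.91 ± 0.40 for Cd44 (adjusted p = 1.37e-05). The simple epithelial pair rose in the kidney and fell in the lung, and the difference was 2.41 ± 0.21 for Krt18 (adjusted p = 3.34e-06) and 1.40 ± 0.23 for Krt8 (adjusted p = 0.000459). Krt7 (interval from -0.36 to 1.73) and Sox9 (interval from 0.10 to 1.12, adjusted p = 0.0674) were not called, though Sox9 was called without 90W lung replicate 2 (0.73, adjusted p = 0.0399), with spike-in scaling (1.13, adjusted p = 0.00608) and as the mean of its probes (3.16, adjusted p = 1.4e-06). With the spread pooled over all 24 arrays the calls of Krt18 (adjusted p = 0.0597), Krt8 (adjusted p = 0.176) and Lcn2 (adjusted p = 0.0676) against the lung were lost, and those of Krt19, Vcam1 and Cd44 were kept. By its other probe, a comparison chosen after seeing the values, Sox9 differed by 4.77 ± 0.41 from the liver and by 5.71 ± 0.42 from the lung. On that probe 1 of 3 young kidneys and 1 of 3 aged lungs were well above background, so these sizes rest in part on values near background.

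Havcr1 and Krt20 could not be tested in this way because the liver and the lung did not pass the filter on dim probes. No size of the difference is given for them, since liver and lung values near background hold no level to compare.

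**Figure D5:**
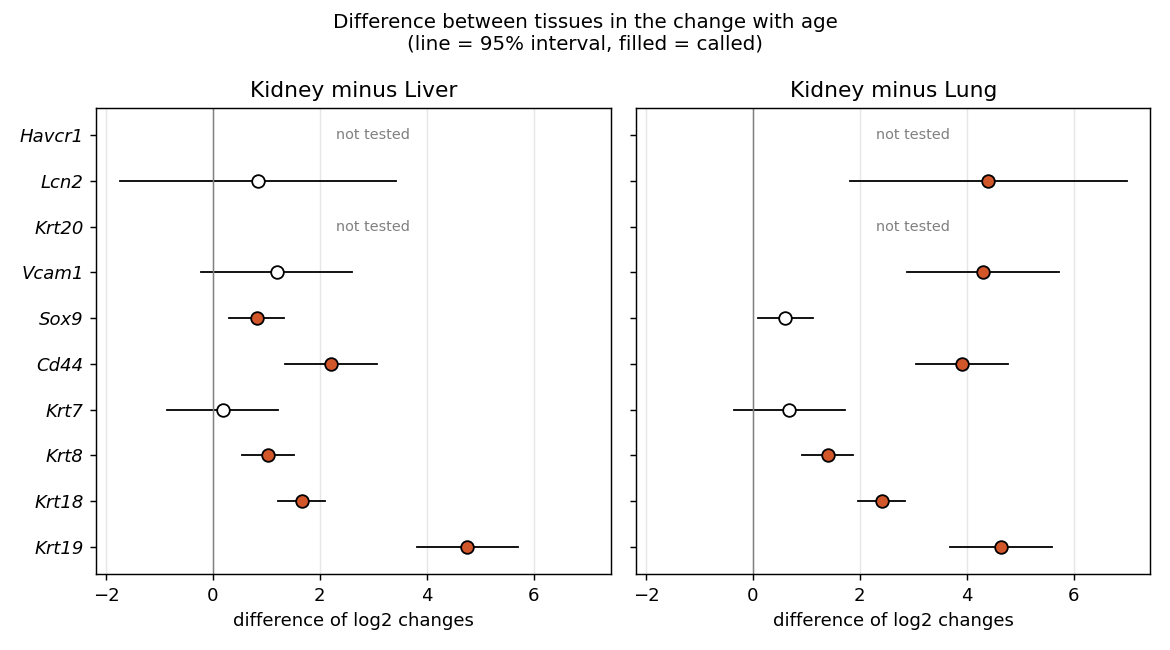
Difference between the change with age in the kidney and that in the liver (left) or the lung (right), in log2 units with the 95% interval from limma, filled where called. Krt19 (4.75 and 4.64) and Cd44 (2.21 and 3.91) lie above 0 in both panels, Lcn2 and Vcam1 are called against the lung alone, and the interval of Krt7 spans 0 in both.

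The tissues also differed in their order of levels, and age changed that order for several genes. At 10W the kidney had the lowest mean of the 4 tissues for Lcn2, Vcam1, Cd44, Krt18 and Krt19. Its young Krt19 level was -2.23 ± 0.59 (SD, n = 3), below the liver (-1.34 ± 0.15), WAT (2.80 ± 0.32) and the lung (4.57 ± 0.15), and no array of neighbouring tissues overlapped. At 90W the kidney (1.92 ± 0.11) ranked second to the lung (4.09 ± 0.09) and above WAT (0.38 ± 0.05) and the liver (-1.95 ± 0.79), again with no overlap.

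For Vcam1 the young kidney (0.27 ± 0.16) lay below WAT, while the aged kidney (4.82 ± 0.17) overlapped the aged liver (4.87 ± 0.55) and aged WAT (4.63 ± 0.52). For Cd44 the kidney stayed lowest at both ages, at -3.78 ± 0.25 and 0.65 ± 0.39, and at 90W it overlapped the liver (1.49 ± 0.75). Krt8 and Krt18 were highest in the liver at both ages. Krt7 was highest in the lung at 10W (3.64 ± 0.06), with the kidney next (2.42 ± 0.11), and at 90W lung (2.81 ± 0.83) and kidney (2.28 ± 0.11) overlapped. Krt20 was similar in young WAT (-3.63 ± 0.86) and the young kidney (-4.06 ± 1.58), which overlapped, and in the aged kidney (2.41 ± 0.11) it stood apart from all other tissues.

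Over the 24 arrays, which mix 4 tissues and 2 ages and so share tissue, slide and scaling, the pair Krt8 and Krt18 had a Pearson correlation of 0.882 and Havcr1 and Krt20 one of 0.828. Among 19067 genes, those most like Havcr1 were Slc13a2os (0.927) and Sprr2f (0.92), and those most like Krt20 were Mex3a (0.904) and Il34 (0.885). Havcr1 was near background on nearly all arrays outside the kidney, and Krt20 on nearly all liver and lung arrays. The correlations of these genes therefore include many values that hold no level to compare. The genes most like Cd44 were Lyn (0.976) and Bin2 (0.972), and those most like Krt8 were Dsp (0.95) and Ptprf (0.946). Krt18 was closest to Stap2 (0.942) and Cldn3 (0.922), Krt19 to Krt42 (0.987) and Inka2 (0.964), and Krt7 to Ppp1r26 (0.976) and Pgap4 (0.973). Lcn2 was closest to H2ac13 (0.885) and Cdca7 (0.883), Vcam1 to Ppfia4 (0.925) and Lair1 (0.917), and Sox9 to Alpl and Pkhd1 (both 0.946). These correlations describe the 24 arrays and carry no test.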

How the data were processed

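Members and gene lists were chosen with earlier results of these data known. Per the file headers, the authors read the scans with Agilent Feature Extraction 11.0.1.1, which wrote for each of 62976 spots a background-subtracted intensity, not scaled between arrays, and a flag for spots well above background. The intensity values were used as deposited. The array design is a mouse one on mm9, while the methods name a human kit. The files hold no gene names: 32994 of 56605 probes (58.3%) were matched by accession, version removed, to 22911 RefSeq symbols (GRCm38.p6), and promoter windows came from the same assembly.

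Flagged spots (1841, 40 to 135 per array) were left out. The deposited signals were put on the log2 scale, spots of a probe were averaged, and each array's 75th percentile was subtracted. A probe entered a tissue's tests if 3 or more of its 6 arrays were flagged well above background, and a gene was read from the brightest such probe. Aged and young samples were compared by limma 3.58.1 (lmFit, eBayes; R 4.3.3), calling changes at 0.05 after Benjamini-Hochberg adjustment over all entries tested. Differences between tissues were contrasts in 1 fit of the kidney, liver and lung arrays, over entries that passed in both. There a gene was read from its brightest probe over all arrays of that fit, so the probe can differ from that of a single tissue. Summed levels add the linear values of a list. A fold against a group not well above background was bounded by each array's lowest signal called so. The code was tested on simulated data.

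Named genes were all members, up to 2 called genes per direction of each list with the largest change, defining markers not above background, and the 2 genes most correlated with each member. Foxj1, Jchain, Crisp1 and the genes that marked arrays standing apart are among the list genes, and some list genes below the rule's first 2 were named after their values were seen. Alternatives were another background correction (normexp, offset 16), quantile normalization, median centring, spike-in scaling, dropping the filter on dim probes, averaging a gene's probes, each further probe, a single fit of all 24 arrays, a block for replicate numbers, leaving out each array, and the methods' t-test. Motifs were searched with Python 3.11.15, and the set of motifs was changed after matches had been seen: a loose NF-κB pattern, which matched Krt7, Krt8 and Krt18, was made stricter, which left no match among the members, and was then replaced by the CCAAT box. Shares for the NF-κB patterns are not reported here. Figures were drawn with matplotlib 3.10.9.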

Additional observations from a re-analysis of the deposited data

Results flagged for a closer look

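Some of the 10 genes changed with age by different amounts in different tissues, by the test of the difference itself. Against the liver the kidney's change was larger by 0.82 (Sox9, by probe A_55_P2745144 in both tissues), 2.21 (Cd44), 1.03 (Krt8), 1.66 (Krt18) and 4.75 (Krt19), all log2. Against the lung it was larger by 4.40 (Lcn2), 4.31 (Vcam1), 3.91 (Cd44), 1.40 (Krt8), 2.41 (Krt18) and 4.64 (Krt19).

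For 3 keratins every aged kidney lay above every young one while every aged WAT sample lay below every young one. The kidney's change exceeded that of WAT by 4.25 for Krt8, 4.87 for Krt18 and 6.57 for Krt19, and these differences were not tested. The Krt8 and Krt18 values in WAT include the array with epididymal genes. Groups of 3 arrays are too small for a test of single outlying samples.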

How the results depend on the processing

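All 9 rises in the kidney stayed called under every alternative except the fit of all 24 arrays, which gave 7; none turned direction. The median change of all entries in the kidney was -0.23 and moved to 0.12 with spike-in scaling (liver -0.20 to -0.04, lung -0.08 to -0.24, WAT -0.05 in both). In the liver, the methods' t-test after adjustment kept 1 higher call of 3 (Vcam1; Lcn2 and Cd44 were lost), and Cd44 also lost its call with the replicate block (2.24, adjusted p = 0.0582). In the lung, lower calls went from 2 to 0 without the dim filter, with all 24 arrays and with the replicate block, and to 1 (Krt18) by the adjusted t-test. Krt19 gained a lower call with spike-in scaling and by the unadjusted t-test, and 1 higher call (Cd44) appeared with quantile normalization and by the unadjusted t-test. In WAT, higher calls went from 1 to 2 (Cd44 added) with normexp, all 24 arrays and the unadjusted t-test, and to 0 with the replicate block and the adjusted t-test. Lower calls in WAT went from 2 to 4 with all 24 arrays (Krt8 and Krt18 added) and to 0 by the adjusted t-test. Larger changes in the kidney went from 5 to 2 against the liver and from 6 to 3 against the lung with all 24 arrays, and to 3 against the liver with the replicate block (Krt8 0.79, adjusted p = 0.0566, and Sox9 0.80, adjusted p = 0.0814, were lost).

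Leaving out 1 array gave 0 to 1 lower calls in the liver, 0 to 2 lower calls in the lung, and 0 to 1 higher and 1 to 3 lower calls in WAT. Over these fits the change ran from -0.14 to 0.18 for liver Krt18, -0.18 to 0.20 for liver Sox9, -0.34 to 0.84 for lung Vcam1, -0.36 to 0.48 for WAT Krt20 and -1.57 to 1.06 for WAT Lcn2, and the difference from the liver from -0.14 to 0.47 for Krt7 and -0.33 to 2.09 for Lcn2. Where a fit leaves 2 arrays in a group, the spread is shared with the other group.

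The other reversals were all of uncalled values: kidney Krt7 0.08 with quantile normalization and 0.21 with spike-in scaling; liver Krt18 0.03 with normexp, 0.21 with quantile normalization, 0.00 with centring on the median and 0.16 with spike-in scaling; liver Sox9 -0.08 with normexp, -0.13 as the mean of its probes and -0.33 by probe A_55_P2745144; lung Sox9 0.02 with normexp; lung Cd44 -0.03 by probe A_55_P2166488; and WAT Lcn2 0.05 by probe A_51_P510156. Same-numbered samples correlated at -0.17 to 0.18 and no tissue had all above 0.1, so the numbers do not pair the samples. With the replicate block, which sets aside the unmatched numbers of the liver, liver Krt18 was 0.23 and liver Krt7 0.08, and the differences from the liver were -0.21 for Krt7 and -0.89 for Lcn2. The cause of these changes was not tested. Levels near background limit Havcr1 and Krt20 outside the kidney.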
